A study of Mus musculus with 4 samples.

Results

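The genes described are the glutathione peroxidases Gpx1, Gpx2, Gpx3, Gpx4, Gpx7 and Gpx8 and the selenoprotein P gene Selenop (older symbol Sepp1), 7 of the 18193 mouse genes with a probe set of a single gene symbol. They were chosen by symbol, taking every probe set annotated to exactly 1 of them, and 8 probe sets were found, 2 of them for Gpx4. Their RNA was measured in endometriotic lesions, in which endometrium-like tissue grows away from the uterus. The high-fat diet group has 2 arrays (replicates 1 and 2) and the casein diet group, the control, also has 2. The series design states that all mice carried such lesions, and each array was made from 0.1 µg of total RNA. Strain, age, time on the diet and how many animals or lesions an array stands for are not given in the labels, so the p-values measure only the spread between these samples, which may be technical.

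Of the glutathione peroxidases, Gpx1, Gpx2, Gpx3 and Gpx4 reduce hydrogen peroxide and organic hydroperoxides with electrons from glutathione, which glutathione reductase then restores. Gpx1, Gpx2, Gpx3 and Gpx4 carry selenocysteine, the selenium-containing amino acid, in the active site, and Gpx7 and Gpx8, which sit in the endoplasmic reticulum, carry cysteine there. Selenoprotein P is a secreted protein with several selenocysteines that carries selenium between tissues and is made mainly by the liver. The series title places the diets in the context of redox status.

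The promoters of Gpx3, Selenop and Gpx2 are shown because these genes had the widest separation between the diets, Gpx3 and Selenop toward higher and Gpx2 toward lower values on the high-fat diet. Each is the 250 bases before the annotated start, from RefSeq on GRCm38.p6, given on the strand of the gene. For Selenop, with 3 annotated starts, the most upstream is printed. Capitals mark exact matches to the GC box (GGGCGG) and the CCAAT box (CCAAT) on either strand, which do not overlap here.
Gpx3, chr11:54902604-54902853, plus strand: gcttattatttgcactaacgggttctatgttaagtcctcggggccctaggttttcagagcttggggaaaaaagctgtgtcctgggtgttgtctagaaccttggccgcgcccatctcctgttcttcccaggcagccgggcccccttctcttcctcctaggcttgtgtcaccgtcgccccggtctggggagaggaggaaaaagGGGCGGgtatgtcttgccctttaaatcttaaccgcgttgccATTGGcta
Selenop, chr15:3270517-3270766, plus strand: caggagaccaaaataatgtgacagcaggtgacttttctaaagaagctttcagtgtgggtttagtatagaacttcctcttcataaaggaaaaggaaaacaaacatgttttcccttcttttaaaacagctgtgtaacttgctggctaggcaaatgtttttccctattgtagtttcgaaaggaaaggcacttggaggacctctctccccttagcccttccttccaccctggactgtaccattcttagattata
Gpx2, chr12:76795555-76795804, minus strand: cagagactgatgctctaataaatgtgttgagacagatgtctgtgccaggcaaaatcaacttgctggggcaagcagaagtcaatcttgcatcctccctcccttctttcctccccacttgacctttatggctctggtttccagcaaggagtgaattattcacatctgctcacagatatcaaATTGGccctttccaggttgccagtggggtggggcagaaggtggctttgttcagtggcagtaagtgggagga
The Gpx3 window held 1 GC box, beginning 49 bases before the start, and 1 CCAAT box in reverse, beginning 8 bases before it. The Gpx2 window held 1 CCAAT box in reverse, beginning 71 bases before the start, and the Selenop window printed held neither. Of 32851 promoter windows of this length, 32.7% held a GC box and 33.8% a CCAAT box. The antioxidant response element, the DNA sequence bound by NRF2 (searched as TGACNNNGC on both strands), was in 10.2% of all windows and in 0 windows of the 7 genes. The TATA box (TATAAA, both strands) was in 12.4% of all windows and, among the 7 genes, in the window of the most downstream Selenop start. A match is a description of the letters, and its absence says nothing about a factor.

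The median intensity was 56.4 and 56.1 on the high-fat diet arrays and 55.1 and 56.5 on the casein diet arrays. Endometrial stroma markers were above the filter on low values for 10 of 10 genes and endometrial epithelium markers for 8 of 8. Some arrays stood apart in genes of other tissues. Casein diet replicate 1 was highest in the sums of the gastric and intestinal marker lists and stood 1 log2 or more above all the others for 280 genes. Casein diet replicate 2 also held gastric genes, and high-fat diet replicate 1 held skeletal muscle genes. The values of the 7 genes are therefore given for every array, and their differences also without each array. RNA of a bulk lesion cannot tell apart fewer cells of a type and less RNA per cell.

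Across the 7 genes, Gpx3 and Selenop were higher and Gpx2 lower on the high-fat diet by more than the gap between the replicates of either diet, and Gpx1, Gpx4, Gpx7 and Gpx8 differed by less than the larger of these gaps. After Benjamini-Hochberg adjustment over all 12797 tested genes, limma called none of the 7 genes. It called 0 genes (0%) of the whole table at an adjusted p under 0.05, the smallest adjusted p being 0.823, and 636 genes had an unadjusted p under 0.05. All 7 genes passed the filter on low values.

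Gpx3 encodes the secreted glutathione peroxidase of plasma and extracellular fluid, which the kidney makes in large amounts. Its intensity was 4900.3 and 6080.35 on the high-fat diet (replicates 1 and 2, an order kept throughout), against 2408 and 2107 on the casein diet. The lower of the high-fat diet arrays was above the higher of the casein diet arrays by a wide margin, and the groups did not overlap. The mean was 5490.3 ± 834 on the high-fat diet and 2257 ± 213 on the casein diet (SD, n = 2 each). This is a log2 difference of 1.28 (SE 0.16, 95% interval 0.83 to 1.73), or 2.42-fold, with a limma unadjusted p of 0.00163 and an adjusted p of 0.849. Gpx3 stood 24th of 12797 genes by unadjusted p and 99th by size among differences toward the high-fat diet. The replicate gap was 0.31 log2 on the high-fat diet and 0.19 log2 on the casein diet, so the separation of the diets was several times the spread within them. It differed by 1.12 without high-fat diet replicate 2 and by 1.43 without high-fat diet replicate 1. Leaving out casein diet replicate 1 gave 1.37 and leaving out casein diet replicate 2 gave 1.18, so no single array carried the separation.

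Selenop had intensities of 9062 and 8098 on the high-fat diet, against 6082 and 6859 on the casein diet. Both high-fat diet arrays lay above both casein diet arrays, with a smaller step than for Gpx3. The mean was 8580.0 ± 681 on the high-fat diet and 6471 ± 549 on the casein diet (SD, n = 2 each). The log2 difference was 0.41 (SE 0.12, 95% interval 0.06 to 0.76), or 1.33-fold, with a limma unadjusted p of 0.0322 and an adjusted p of 0.863. The replicate gaps of 0.16 log2 on the high-fat diet and 0.17 log2 on the casein diet were each under the difference. It ranged from 0.32 to 0.49 when 1 array was left out, lowest without casein diet replicate 1.

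Gpx2 encodes the glutathione peroxidase of epithelia, known best from the gastrointestinal tract. Its intensity was 269 and 235 on the high-fat diet, against 549 and 377 on the casein diet. The groups did not overlap, and the casein diet arrays were the more uneven, with a replicate gap of 0.54 log2 there and 0.20 log2 on the high-fat diet. The log2 difference was -0.86 (SE 0.23, 95% interval -1.50 to -0.21), or 0.55-fold, with a limma unadjusted p of 0.0214 and an adjusted p of 0.863. The value was highest in casein diet replicate 1, the array with the most gastric and intestinal RNA, and without that array the difference was -0.59 (SE 0.15). Casein diet replicate 2 also held gastric RNA (summed marker intensity 10015, against 443 and 451 on the high-fat diet). Leaving out replicate 1 therefore did not level the gastric RNA between the diets. Leaving out casein diet replicate 2 instead gave -1.13 (SE 0.15).

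Gpx1 encodes the cytosolic and mitochondrial peroxidase found in nearly all cells. Its intensity was 5604 and 5464 on the high-fat diet, against 7216 and 5895 on the casein diet. The high-fat diet arrays were close together and below both casein diet arrays, but the casein diet arrays were as far apart from each other as the diets were. The log2 difference was -0.24 (SE 0.14, 95% interval -0.63 to 0.16, limma unadjusted p = 0.166, adjusted p = 0.863), with a replicate gap of 0.29 log2 on the casein diet. Leaving out casein diet replicate 1 gave -0.09, and leaving out casein diet replicate 2 gave -0.38.

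Gpx4 encodes the peroxidase that reduces lipid hydroperoxides within membranes and restrains ferroptosis, an iron-dependent form of cell death. Its brighter probe set had intensities of 2213 and 2052 on the high-fat diet, against 1748 and 2010.2 on the casein diet. The groups did not overlap, but high-fat diet replicate 2 and casein diet replicate 2 were nearly level. The log2 difference was 0.19 (SE 0.12, 95% interval -0.16 to 0.53, limma unadjusted p = 0.205, adjusted p = 0.863). The dimmer probe set read 2180 and 1872 on the high-fat diet, against 1582 and 1868 on the casein diet, a log2 difference of 0.23 (SE 0.15). The probe sets therefore gave the same order of arrays and differences of like size. The dimmer one carries the suffix by which Affymetrix marks probes that can match other transcripts, and Gpx4 has processed pseudogenes in the mouse genome, so its reading is uncertain. The difference of the brighter probe set was 0.08 with casein diet replicate 1 left out and 0.29 with casein diet replicate 2 left out.

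The endoplasmic reticulum peroxidases overlapped between the diets. Gpx7 had intensities of 451 and 380.4 on the high-fat diet, against 324 and 399 on the casein diet, a log2 difference of 0.20 (SE 0.17, 95% interval -0.27 to 0.68, limma unadjusted p = 0.289). High-fat diet replicate 2 lay below casein diet replicate 2, and the difference ranged from 0.05 (casein diet replicate 1 left out) to 0.35 (casein diet replicate 2 left out). Gpx8 had 1001 and 1009.9 on the high-fat diet, against 914 and 1038 on the casein diet, a log2 difference of 0.05 (SE 0.11, 95% interval -0.27 to 0.36, limma unadjusted p = 0.700). Of the 7 genes Gpx8 differed least, and its sign turned without casein diet replicate 1 (-0.05).

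**Figure D1:**
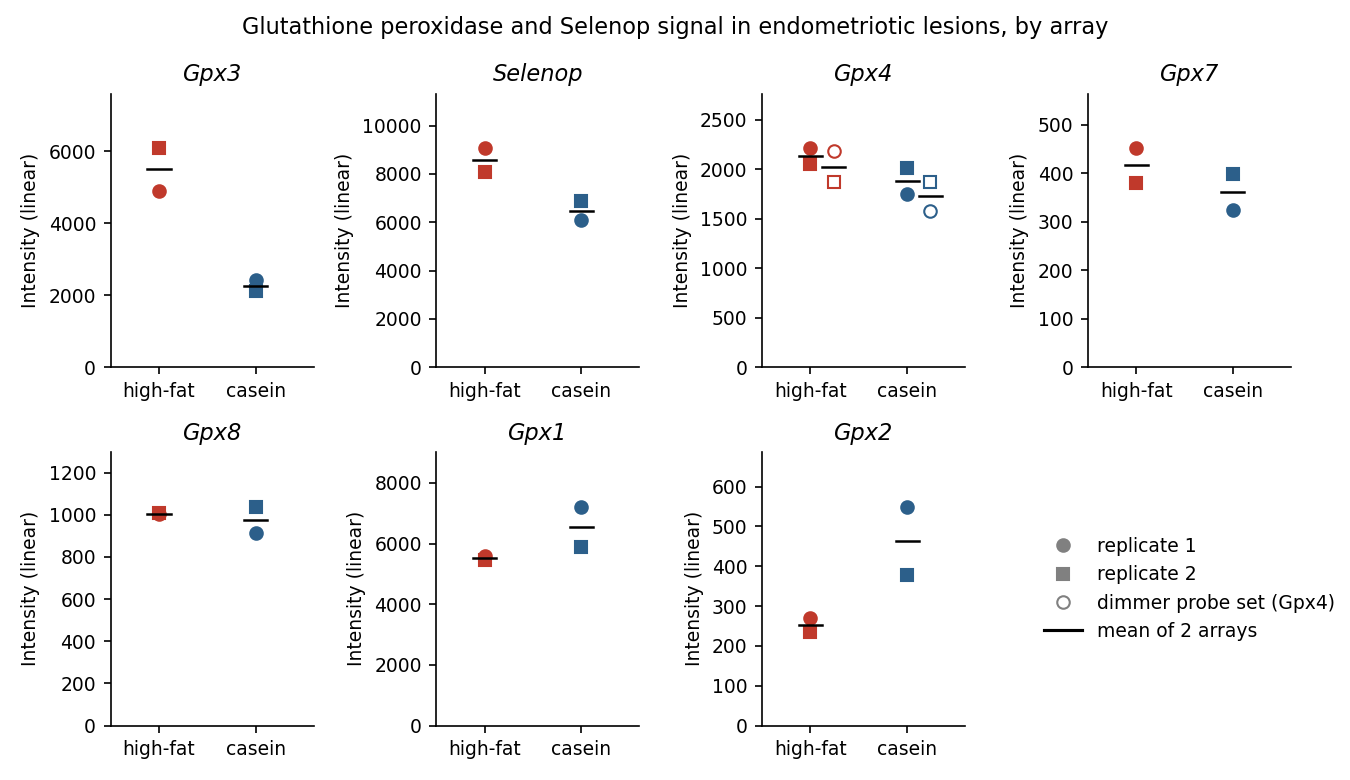
Intensity on a linear axis from 0 for each gene, 1 point per array, high-fat diet (red) left of casein diet (blue), with bars at the mean of 2 arrays and open points for the dimmer Gpx4 probe set. Gpx3 sits at 4900.3 and 6080.35 on the high-fat diet and at 2408 and 2107 on the casein diet, and Gpx2 sits lower on the high-fat diet in both replicates.

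**Figure D2:**
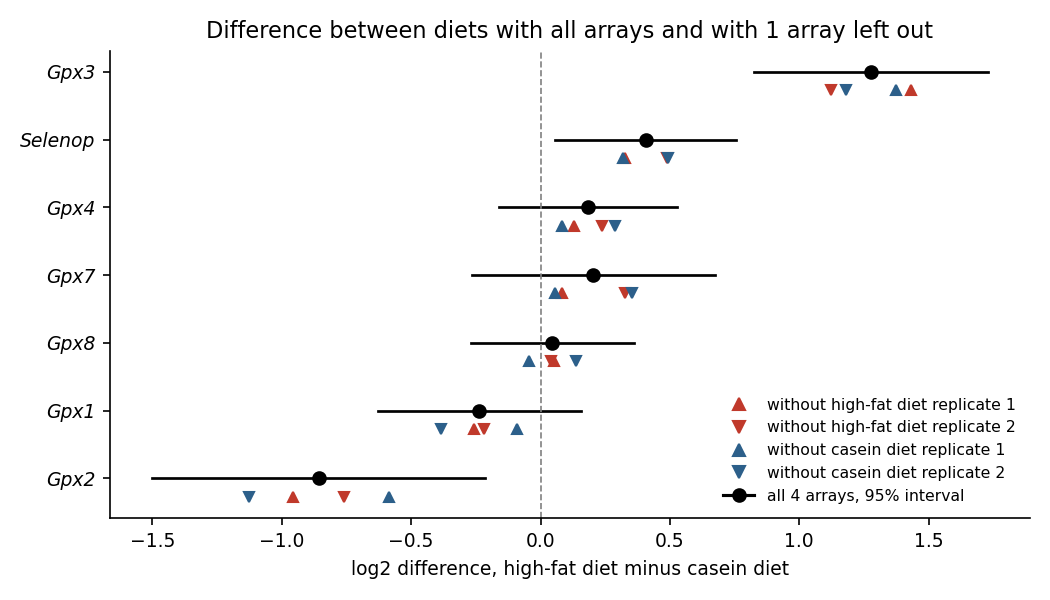
log2 difference, high-fat diet minus casein diet, for each gene with all 4 arrays (black, limma's 95% interval) and with each array left out (triangles). The interval of Gpx3 runs from 0.83 to 1.73, those of Gpx1, Gpx4, Gpx7 and Gpx8 cross 0, and the Gpx8 value turns to -0.05 without casein diet replicate 1.

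Set beside all tested genes, 5 of the 7 genes had higher values on the high-fat diet and 2 had lower values, and 48.6% of all tested genes were higher. Groups did not overlap for 5 of the 7 genes, beside 36% of all tested genes. These were 3 genes toward higher values (Gpx3, Selenop and Gpx4), where the share over all tested genes was 16.6%, and 2 toward lower values (Gpx1 and Gpx2), where it was 19.3%. limma gave an unadjusted p under 0.05 for 3 of the 7 genes, beside 4.97% of all tested genes (2.24% higher and 2.73% lower). The count was 2 of 7, without Selenop, with the replicate number as a block (Selenop limma unadjusted p = 0.0754) and after quantile normalisation (limma unadjusted p = 0.0597). With 1 array left out it was between 1 and 4, being 1 (Gpx3) without either high-fat diet array, 2 without casein diet replicate 1 and 4, with Gpx1 added, without casein diet replicate 2. The difference exceeded the replicate gap of both diets for Gpx3, Selenop and Gpx2, beside 21.5% of all tested genes. The median difference of the 7 genes was 0.19 log2, beside -0.01 over all tested genes. With 7 genes, chosen with earlier results of these data known, these shares are only a description. The intervals of Gpx4, Gpx7 and Gpx8 also leave room for differences of either sign.

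**Figure D3:**
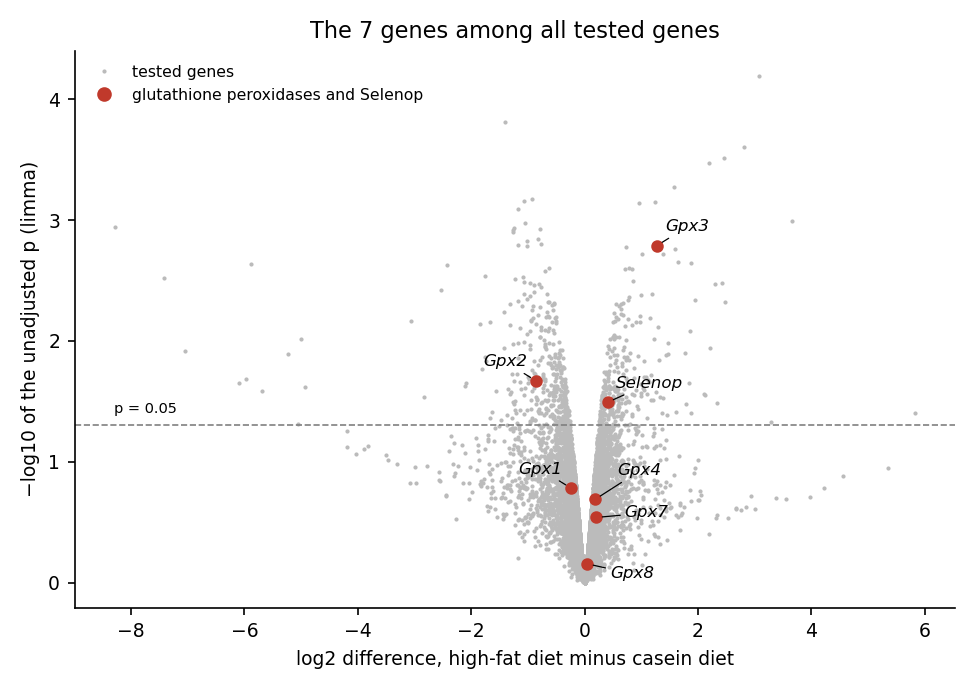
log2 difference, high-fat diet minus casein diet (x axis), and −log10 of limma's unadjusted p (y axis) for 12797 tested genes in grey and the 7 genes in red. Gpx3, Gpx2 and Selenop lie above the dashed line, which marks an unadjusted limma p of 0.05, and no gene passed after adjustment.

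Of the other genes of selenium and glutathione metabolism, none passed the adjusted test, and Lrp2, had the widest difference. Of 49 listed genes 46 were on the array with a single symbol and 43 were tested. Of these 18 (41.9%, beside 48.6% of all tested genes) had higher and 25 lower values on the high-fat diet. Their median was -0.04, and 0 passed limma's adjusted test. Only 1 had a limma unadjusted p under 0.05, beside 4.97% of all tested genes. Gpx5 and Gpx6, the peroxidases of epididymis and olfactory epithelium, were below the filter, at 24.7 or less and 20.3 or less on every array.

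Among the other selenoproteins 6 of 17 tested genes were higher and 11 lower, with a median of -0.04. The smallest unadjusted p of the list belonged to Dio2, the deiodinase that activates thyroid hormone, at 1465 and 1283 on the high-fat diet and 2335 and 1749 on the casein diet (log2 difference -0.56, SE 0.19, limma unadjusted p = 0.0438, adjusted p = 0.863). Its groups did not overlap, and the difference was -0.35 without casein diet replicate 1. Selenoi, an enzyme of phospholipid synthesis, had 177 and 163 on the high-fat diet and 367 and 193 on the casein diet. That difference of -0.65 log2 (SE 0.35) rested on casein diet replicate 1, and without it was -0.18. Txnrd1, the cytosolic thioredoxin reductase, differed by -0.18 (SE 0.12), Selenoo of mitochondria by -0.24 (SE 0.15), and Selenow, abundant in muscle, by 0.09 (SE 0.19). Selenow was highest in high-fat diet replicate 1, the array with skeletal muscle RNA, and differed by -0.14 without it.

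Genes of selenium uptake and of the machinery that makes and inserts selenocysteine were 7 higher and 4 lower of 11 tested, with a median of 0.03. Lrp8, a receptor that takes up selenoprotein P, had intensities of 49.0 and 44.2 on the high-fat diet and 57.1 and 48.0 on the casein diet (log2 difference -0.17, SE 0.14). Lrp1, a large endocytic receptor, differed by 0.31 (SE 0.22), from 0.07 to 0.55 with 1 array left out. Scly, which frees selenium from selenocysteine, differed by -0.14 (SE 0.10), and Sephs1, a paralogue of the selenophosphate synthetase, by 0.12 (SE 0.12). Lrp2, the kidney receptor for selenoprotein P, was named after its values were seen, because its difference of 1.34 had an SE of 1.69. Its intensities were 296 and 844 on the high-fat diet and 43.0 and 911 on the casein diet, so its groups overlapped widely.

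Genes of glutathione synthesis, recycling and cystine uptake were 5 higher and 10 lower of 15 tested, with a median of -0.10. Gsr, the glutathione reductase that returns oxidised glutathione to its reduced form, had 516 and 467 on the high-fat diet and 705 and 579 on the casein diet. Its arrays did not overlap between the diets (log2 difference -0.38, SE 0.15, limma unadjusted p = 0.0631, adjusted p = 0.863), and the difference was -0.24 without casein diet replicate 1. Gclc, the catalytic subunit of the enzyme that starts glutathione synthesis, had 465 and 598 on the high-fat diet and 648 and 660 on the casein diet. It differed by -0.31 (SE 0.16), from -0.49 to -0.13 with 1 array left out, and the lower high-fat diet array was replicate 1. Gss, glutathione synthetase, had 94.0 and 100.3 on the high-fat diet and 236 and 99.8 on the casein diet, so its difference of -0.66 (SE 0.46) came from casein diet replicate 1 and was -0.04 without it. Glrx3, a glutaredoxin of iron-sulfur cluster handling, differed by 0.28 (SE 0.10, limma unadjusted p = 0.0531), with 42.9 and 45.7 on the high-fat diet and 37.8 and 35.0 on the casein diet, near the filter.

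**Figure D4:**
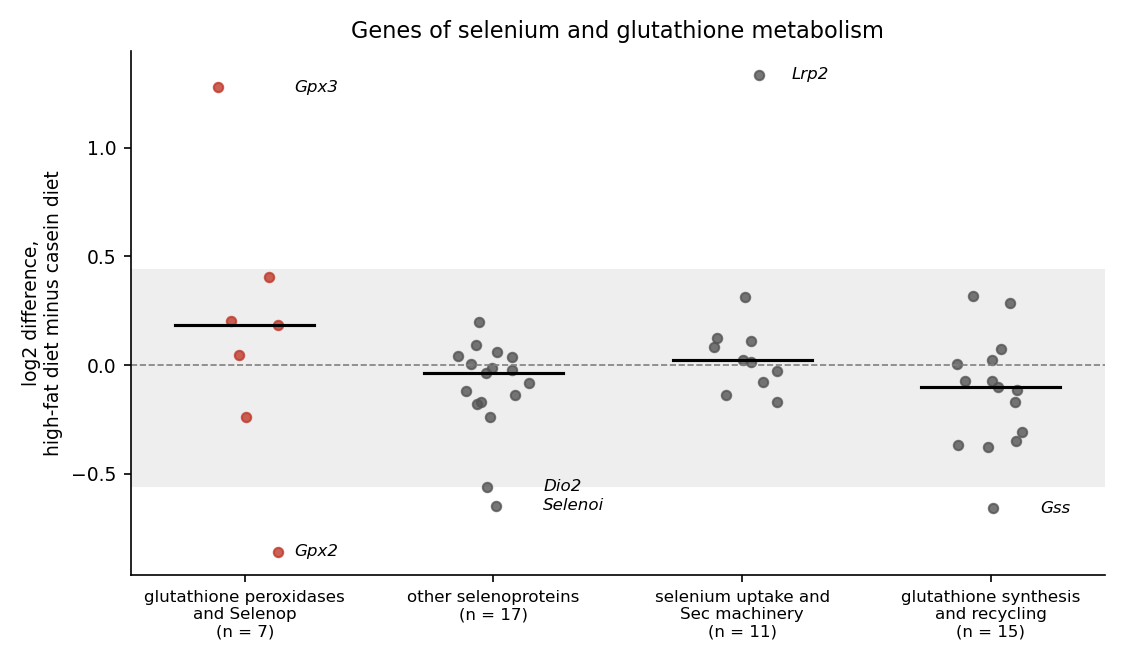
log2 difference, high-fat diet minus casein diet, of each tested gene (points) with the median of each list (bars), the shaded band running from the 5th to the 95th percentile of all tested genes (-0.56 to 0.44). Gpx3 and Lrp2 lie above the band and Gpx2, Selenoi, Dio2 and Gss below it.

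The 7 genes differed among themselves in their pattern over the 4 arrays. Likeness was measured as the root-mean-square (RMS) distance between log2 values centred on each gene's mean. Gpx4 and Gpx7 were closest, at 0.061 log2, both low in casein diet replicate 1 and high in high-fat diet replicate 1. Gpx4 was 0.113 from Selenop, whereas Gpx3 was 0.484 from Selenop, its nearest of the 7 genes, and 1.09 from Gpx2, the largest distance among them. The genes most like Gpx3 were Chodl, which encodes chondrolectin (0.101), the immunoglobulin genes Igk (0.172) and Ighg3 (0.179), the transcription cofactor gene Vgll3 (0.207) and Serpinb11 (0.212), for a distance of Gpx3 from its own mean of 0.652. Immunoglobulin probe sets can share sequence with other family members, so those readings are uncertain. Nearest to Selenop were Heph (0.0151), which encodes the ferroxidase hephaestin, Eva1c (0.0209) and Sh2b2 (0.0228). Nearest to Gpx2 were Tspan13 (0.0337) and the chemokine genes Ccl4 (0.0515) and Ccl3 (0.0517). The nearest to Gpx1 were Prrg1, Cnih4 and Bad, to Gpx4 were Xrn1, Fam172a and Taok2, to Gpx7 were Napb, St6galnac3 and Ssc5d, and to Gpx8 were Rprd1a, Smad4 and Map3k7. With 4 arrays and 12797 genes, near patterns are many, and these names are a description.

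Marker lists of cell types are given beside Gpx2, Gpx3 and Selenop. Some lists differed between the diets in the direction of the gene, and others overlapped or ran the other way. For Gpx2, the gastric list (11 of 12 genes on the array, 7 above the filter) had summed intensities of 443 and 451 on the high-fat diet and 65282 and 10015 on the casein diet, with Pgc, Atp4a, Cblif and Chia1 below the filter. The intestinal list (12 of 12 on the array, 5 above the filter) summed to 277 and 309 on the high-fat diet and 7651 and 493 on the casein diet. The general epithelial list (8 of 8 above the filter) summed to 4962 and 9462 on the high-fat diet and 24141 and 11210.3 on the casein diet. The endometrial epithelium list (8 of 8 above the filter) was lower on the high-fat diet for 8 of 8 genes by mean log2. Its average deviated by -0.44 and -0.07 log2 on the high-fat diet and by 0.11 and 0.40 on the casein diet. Its sums overlapped, at 10665 and 11113 against 10357.5 and 18731. Like the gastric, intestinal and general epithelial sums, Gpx2 was higher in both casein diet arrays than in either high-fat diet array. That order between the diets was found for 19.3% of all tested genes. Within the high-fat diet the order was the reverse, with Gpx2 higher in replicate 1 (269 and 235) and each of these sums higher in replicate 2. The part of any of these lists in the Gpx2 difference was not tested.

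For Gpx3, a list of kidney tubule genes (6 of 6 on the array, 4 above the filter) summed to 434 and 1329 on the high-fat diet and 179 and 1073 on the casein diet, with Lrp2 the largest part on 3 of the 4 arrays. Umod, which marks the thick ascending limb of the kidney, was at 4.72 and 349 on the high-fat diet, the higher value in the array with the most Gpx3, and at 6.33 and 5.62 on the casein diet. The proximal tubule gene Slc34a1 was between 11.7 and 12.1 on all 4 arrays. Without high-fat diet replicate 2, Gpx3 differed by 1.12, as given above. The adipocyte list (6 of 8 on the array, 4 above the filter, Cidec and Lep below it) summed to 3661 and 4744 on the high-fat diet and 2892 and 5342 on the casein diet, a sum made up mostly of Lpl. Averaged over its genes, the list was highest in high-fat diet replicate 2 (0.76 log2 above the mean of the 4 arrays), the array with the most Gpx3. The same average was lowest in high-fat diet replicate 1 (-0.70), the array with the next most Gpx3, and was 0.18 and -0.24 on the casein diet. By mean log2, 5 of its 6 genes were higher on the high-fat diet. Adipoq, which marks fat cells, was at 33.1 and 348 on the high-fat diet and 107 and 91.4 on the casein diet. The smooth muscle list (6 of 6 above the filter) summed to 15432 and 12859 on the high-fat diet and 21004 and 24955 on the casein diet, lower on the high-fat diet for 6 of 6 genes and in the reverse order of Gpx3 over the 4 arrays. The mesothelium list (5 of 5 on the array, 4 above the filter, Lrrn4 below it) summed to 619 and 1141 on the high-fat diet and 5831 and 1541 on the casein diet. Much of that sum was Krt19, also in the epithelial list, at 261 and 772 against 5236 and 1053. Wt1 overlapped between the diets, at 301 and 308 against 245 and 311. The mesothelium, gastric, intestinal and epithelial sums did not overlap between the diets. The part of these lists in the Gpx3 difference was not tested.

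For Selenop, the hepatocyte list (7 of 8 on the array, 5 above the filter, Ahsg and Fga below it) summed to 144 and 304 on the high-fat diet and 950.0 and 225 on the casein diet. The highest sum was in the array with the least Selenop and the lowest sum in the array with the most. The macrophage list (10 of 10 above the filter) summed to 31546 and 24869 on the high-fat diet and 26880.0 and 25706 on the casein diet. Of its genes 9 of 10 were higher on the high-fat diet by mean log2. Averaged over all 10 the list was highest in high-fat diet replicate 1 (0.24 log2 above the mean of the 4 arrays), the array with the most Selenop. It was lowest in casein diet replicate 2 (-0.15). High-fat diet replicate 2 (-0.054) lay below casein diet replicate 1 (-0.038), the array with the least Selenop, so the list overlapped between the diets. The skeletal muscle list (10 of 10 on the array, 9 above the filter, Myh2 below it) summed to 25411 and 877 on the high-fat diet and 782 and 1002 on the casein diet. The part of any of these lists in the Selenop difference was not tested. Without high-fat diet replicate 1 Selenop differed by 0.33 (SE 0.17).

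**Figure D5:**
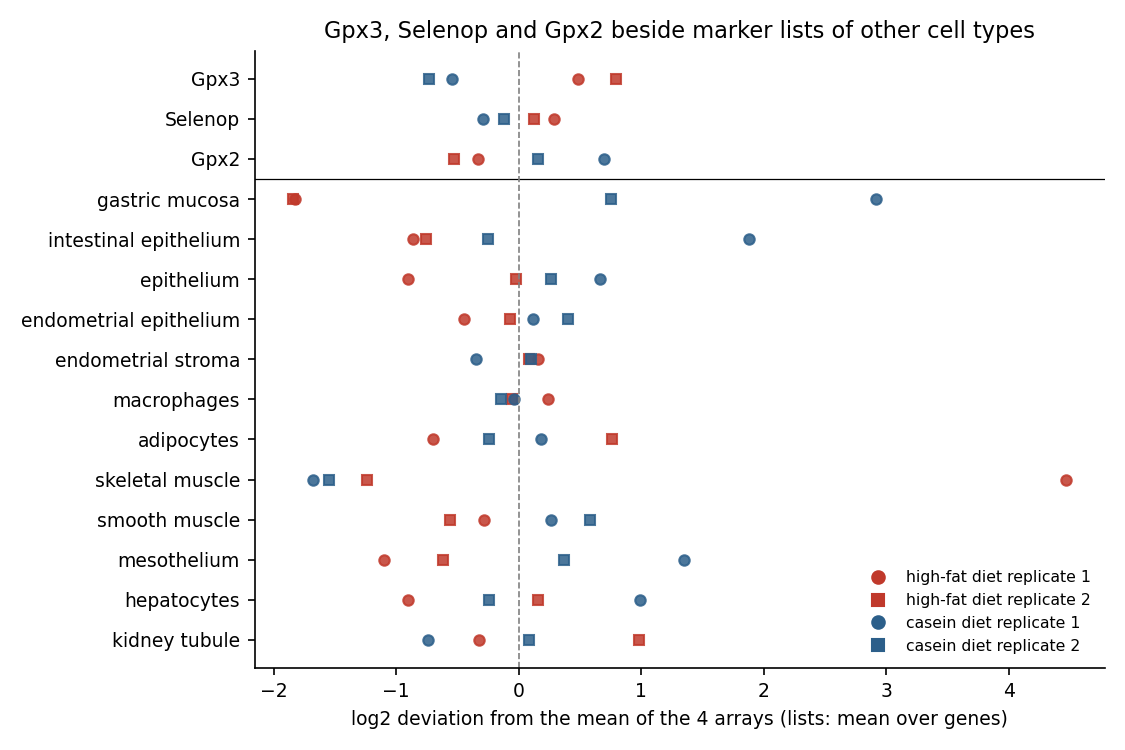
log2 deviation from the mean of the 4 arrays for Gpx3, Selenop and Gpx2 (top) and, averaged over genes, for marker lists of other cell types, high-fat diet in red and casein diet in blue, circles for replicate 1 and squares for replicate 2. Casein diet replicate 1 lies at 2.92 for gastric genes and at 0.70 for Gpx2, and high-fat diet replicate 1 lies at 4.47 for skeletal muscle genes.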

How the data were processed

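RNA from 4 endometriotic lesion samples was measured on Affymetrix 3′ expression arrays. The table deposited by the authors holds 1 linear intensity per probe set and array, with array medians nearly alike. GCOS and RMA are named in the submitters' processing notes, with no version, role or order stated there. Values made alike between arrays would hide a shift of most genes, and no detection calls, scan dates or slides were at hand.

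log2 was taken with no pseudocount. Probe sets were named through the platform annotation: 34945 of 45101 had 1 gene symbol, 932 several and 9160 none, and 64 were controls. Of those with 1 symbol, 34741 matched the mouse RefSeq gene table by identifier and 0 symbols changed. The brightest probe set (highest mean log2) stood for each of 18193 genes, and 12797 genes were tested, those whose mean reached the 40th percentile of non-control probe sets (intensity 33.9).

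The diets were compared with limma 3.58.1 in R 4.3.3 (lmFit and eBayes, two-sided, Benjamini-Hochberg adjustment over all tested genes, 3.80 total degrees of freedom); the fit was tested on simulated data. The smallest exact permutation p for 2 arrays against 2 is 0.333, so p-values come only from limma's model. The 7 genes and the gene lists were chosen with earlier results of these data known. Named beyond them are up to 4 genes per pathway list with the smallest p, together with Gsr, Gclc, Txnrd1, Selenow and Lrp8, and the 5 genes for Gpx3, and 3 for each other gene, with the smallest root-mean-square distance in mean-centred log2 values. Alternatives covered normalisation, filter, probe set choice, pseudocount, weights, prior, the replicate number as a block and each array left out. Promoter windows are RefSeq's (GRCm38.p6), and motifs were found by exact search. Figures were drawn with matplotlib 3.10.9.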

Additional observations from a re-analysis of the deposited data

How the results depend on the processing

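Under 13 alternatives each, 90 of 91 differences of the 7 genes kept their sign and none passed an adjusted p of 0.05 (limma). The replicate block, both filter settings, the array weights and the prior left every difference of the 7 genes unchanged, so those signs could not turn. The mean of all probe sets could change only Gpx4. Gpx8 turned to -0.046 without casein diet replicate 1 (highest 0.14, without casein diet replicate 2). With 1 array left out, Gpx3 ranged from 1.12 to 1.43, Selenop from 0.32 to 0.49 and Gpx2 from -1.13 to -0.59, the lone array of a diet being assumed to vary like the others. The count of genes with an adjusted p under 0.05, 0 in the report, ran from 0 to 17 with 1 array left out (17 without casein diet replicate 2), and at an unadjusted p from 431 to 1825 (636 in the report). Over all tested genes, the difference between replicates 1 and 2 of one diet was nearly uncorrelated with that of the other (-0.022). Single arrays held genes of other tissues, so this value cannot tell whether replicate numbers pair the arrays. With the replicate number as a block 0 genes were called and 576 had an unadjusted p under 0.05 (limma). Each diet holds both replicate numbers, so the block cannot change a difference, only its SE and p. For Gpx3 these were 0.19 and 0.00774 (limma, unadjusted). Of the named pathway genes only Selenow turned sign, to -0.013 with the mean of all probe sets and -0.14 without high-fat diet replicate 1 (highest 0.33, without high-fat diet replicate 2). List medians were small and moved: for other selenoproteins (-0.038) to -0.016 with quantile normalisation, -0.060 with no filter or the 60th percentile filter, and -0.074 to -0.040 with 1 array left out; for selenium uptake (0.025) to 0.015 with median centring, 0.054 with the stricter filter, 0.062 with the mean of probe sets, and 0.0095 to 0.059 with 1 array left out; for glutathione genes (-0.10) to -0.14 with the stricter filter, -0.075 with the mean of probe sets, -0.074 with a pseudocount of 16, and -0.12 to -0.039 with 1 array left out. The cause was not tested. The number of arrays limits the precision of every value.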
